A study of Mus musculus with 58 samples.

Results

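The NRF2 antioxidant pathway was examined through 10 genes, taken by symbol from the deposited raw count tables of microglia isolated from mouse brain: Nfe2l2, Keap1, Slc7a11, Gclc, Gclm, Gsr, Txnrd1, Srxn1, Prdx1 and Nqo1. All 10 are among the 24940 genes of the age series, and all passed its filter on low counts, which left 14309 genes. Of the 10277 genes in the wild-type table of antisense oligonucleotide (ASO) libraries, 9 are members, since Nqo1 is not listed there. All 10 are among the 10589 genes of the SgshKO ASO table.

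The study sequenced polyA RNA from forebrain microglia of C57BL/6 mice, sorted as CD11b+, CD45low and CX3CR1+. SgshKO mice lack the function of Sgsh, a lysosomal enzyme that takes part in breaking down heparan sulfate, and are a model of Sanfilippo disease. The age series sets wild-type mice (WT) beside SgshKO mice, with 3 and 4 libraries at 3 weeks, 2 and 2 at 4 months, and 4 and 7 at 8 months. Injected WT mice make up 5 further groups of 4 libraries, which were given PBS, a control ASO named ntc, or an ASO to 1 target, either Mitf, Tfeb or Tfe3. Among SgshKO mice the injection was ntc in 8 libraries and the Mitf plus Tfe3 ASOs in 8. An ASO is a short synthetic nucleic acid that binds its target transcript and lowers it. It was injected once into the cerebral ventricles and cells were taken 14 days later. The labels give no age for the ASO mice and do not say that each library is a separate animal, so p-values measure the spread between these libraries, which may in part be technical. In bulk RNA, fewer cells of a type and less RNA per cell cannot be told apart.

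NRF2, the product of Nfe2l2, is a transcription factor that KEAP1 normally hands over for degradation. Oxidants and electrophiles modify KEAP1, and NRF2 then accumulates, pairs with small MAF proteins and binds antioxidant response elements near genes for glutathione synthesis, thioredoxin reduction, quinone reduction and NADPH supply. The autophagy receptor SQSTM1 can also hold KEAP1 away from NRF2, which ties the pathway to lysosomal clearance. Because NRF2 is controlled largely at the protein level, its transcript need not follow its activity.

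The 250 bases before the start of each gene were searched for the core of that element, because it is where NRF2 would bind. The sequences are RefSeq promoter windows on GRCm38.p6. Of the 10 members, 8 have a window, 10 windows in all, and Gclc and Gsr have none. The core was searched on both strands as TGACNNNGC or TGATNNNGC. It was found in 5 of the 10 windows, belonging to 5 genes, and in 16.3% of all 32851 windows of the same length. The matches are shown with flanking bases, 5′ to 3′ on the strand of the gene, with the matching letters in capitals. A run that begins with GC is a match on the opposite strand.
Nfe2l2, chr2:75704887-75704911, minus strand: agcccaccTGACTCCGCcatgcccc
Slc7a11, chr3:50443642-50443666, minus strand: gagaatttGCATCATCAtgcagccc
Gclm, chr3:122245415-122245439, plus strand: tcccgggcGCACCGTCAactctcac
Txnrd1, chr10:82859106-82859130, plus strand: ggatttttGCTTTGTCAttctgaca
Prdx1, chr4:116685458-116685482, plus strand: gggaaagcGCTGAGTCAtcccccgt
Counted back from the start that each window precedes, the matches begin at bases 240, 45, 134, 92 and 133, in that order. Txnrd1 has 3 windows, and its match lies in the one at 82858956 to 82859205, before an internal start inside the gene. The window before the first base of Txnrd1 holds no match. Keap1, Srxn1 and Nqo1 had no match, which says only that these letters are not in these windows. The windows of Prdx1 and Srxn1 are printed whole, because these members had the lowest adjusted p for a genotype difference that grew with age. A match to the searched letters is in the Prdx1 window and not in the Srxn1 window. The Srxn1 window does hold tgagtcagc, which differs from TGACNNNGC in 1 letter and was not searched for.
Prdx1, chr4:116685349-116685598, plus strand: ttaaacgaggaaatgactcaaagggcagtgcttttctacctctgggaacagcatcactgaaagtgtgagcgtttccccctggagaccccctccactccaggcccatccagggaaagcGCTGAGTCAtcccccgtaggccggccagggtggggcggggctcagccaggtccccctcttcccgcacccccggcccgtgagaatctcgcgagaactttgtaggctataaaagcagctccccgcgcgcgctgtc
Srxn1, chr2:152105274-152105523, plus strand: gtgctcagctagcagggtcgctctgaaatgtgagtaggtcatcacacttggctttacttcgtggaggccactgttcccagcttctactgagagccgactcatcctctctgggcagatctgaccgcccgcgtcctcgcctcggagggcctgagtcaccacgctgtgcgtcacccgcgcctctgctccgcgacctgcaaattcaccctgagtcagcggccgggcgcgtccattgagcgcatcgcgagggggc
The element CACGTG, which MITF, TFEB and TFE3 bind within longer sites, was also searched on both strands, since these factors were targeted by the ASOs. It was in 0 of the 10 member windows and in 6.02% of all windows. A match is a description of letters and not evidence of binding.

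Each age-series library held 8191508 to 27106584 counts. Depth ran from 14372015 to 30378870 in the WT ASO libraries and from 12517838 to 30431437 in the SgshKO ASO libraries. Values per library are given as CPM, which scales counts by TMM-adjusted library size. The 10 microglial marker genes were abundant in every age-series library but summed to less in SgshKO than in WT at each age, without overlap. The sums were 49800 to 53600 against 56000 to 57600 CPM at 3 weeks, 30500 to 35400 against 46200 to 51800 CPM at 4 months, and 33300 to 37000 against 41600 to 50600 CPM at 8 months. The part of this gap in the differences of the members was not tested. The 8 neuronal markers summed to at most 9.90 CPM. Over the age series, border macrophage markers summed to 955 to 1920 CPM. Astrocyte markers summed to 148 to 403 CPM and oligodendrocyte markers to 118 to 161 CPM. At 8 months these sums overlapped between genotypes, and at the earlier ages not all did. Stab1 made up most of the border macrophage sum and Slc1a3 most of the astrocyte sum. At 8 months Mrc1, Cd163, Folr2, Pf4, Slc1a2, Aldoc, Gfap, Aldh1l1, Mbp and Mobp were above every WT library in all SgshKO libraries. Slc1a2 ran from 4.43 to 9.64 against 1.06 to 2.91 CPM and Gfap from 2.08 to 3.17 against 0 to 0.236 CPM. Slc1a3 was lower, at 164 to 280 against 282 to 398 CPM, and the other markers of these lists overlapped. Endothelial markers summed to less in SgshKO than in WT at each age, at 17.2 to 31.4 against 43.9 to 58.3 CPM at 8 months. That lower sum was set by Pecam1, at 6.29 to 11.1 CPM in SgshKO and 42.5 to 56.3 CPM in WT of 8 months. Flt1 went the other way at 8 months, at 6.69 to 17.1 against 0 to 1.32 CPM. So did Vwf, also without overlap, and the other endothelial markers overlapped between genotypes at that age. The part of these markers in the differences of the members was not tested. The Sgsh transcript was still counted in SgshKO, at 14.9 to 34.7 CPM against 20.3 to 59.2 CPM in WT. Only at 8 months did it differ by edgeR, by -0.74 ± 0.16 on the log2 scale (adjusted p = 5.83e-04). The labels do not say which part of the gene is altered, so these counts do not check the knockout. Neutrophil granule genes were high in all SgshKO libraries of 4 and 8 months, and their values are given beside Gsr.

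Levels between genes were compared only per transcript length, as mean TPM over the 22 age-series libraries, where the SD includes differences between groups. Nfe2l2 was the most abundant member at 181 ± 34.4 TPM (SD, n = 22) and had the highest mean in all 6 groups. Prdx1 (84.4 ± 42.4 TPM) and Gclc (42.3 ± 7.67 TPM) came next over all libraries, but their order changed between groups. In WT of 3 weeks Gclc was above Prdx1 (52.6 ± 6.54 against 41.3 ± 1.83 TPM, n = 3), in WT of 8 months they were alike within their spread (41.1 ± 4.42 and 41.5 ± 5.10 TPM, n = 4), and in SgshKO of 8 months Prdx1 was far above (127 ± 8.36 against 35.8 ± 2.45 TPM, n = 7). Over all libraries Txnrd1 (26.1 ± 6.91 TPM), Keap1 (23.3 ± 3.40 TPM) and Gsr (18.2 ± 14.0 TPM) lay close together, and each of these neighbours differed by less than the larger of their SDs. In SgshKO of 4 months Gsr stood higher, at 48.6 ± 37.0 TPM (n = 2). Gclm ran from 12.9 to 20.4 TPM around a median of 15.5 TPM. Srxn1 was low at 3.68 ± 1.53 TPM. Nqo1 (1.20 ± 2.14 TPM) and Slc7a11 (0.883 ± 0.410 TPM) were the lowest over all libraries, and their order is within the spread.

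The comparison of SgshKO with WT asks which genes respond to loss of the enzyme at each age. Of the 10 members, 2 were higher in SgshKO at 3 weeks (edgeR, adjusted p under 0.05), beside 9.03% of all genes called in either direction. At 4 months 5 were higher, beside 19.5% of all genes, and at 8 months 6 were higher, beside 40.5% of all genes. None was lower at any age. Against the share of all genes called at 8 months, the count of 6 in 10 alone says little. The median log2 difference of the members was 0.18, 0.61 and 0.39 at the 3 ages, and that of all genes tested was -0.02, 0.02 and 0.02. Prdx1 and Nfe2l2 were called at every age. Gsr and Srxn1 were called at 4 and 8 months, Gclm at 4 months alone, and Keap1 and Slc7a11 at 8 months alone. Gclc, Txnrd1 and Nqo1 were called at no age.

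**Figure D1:**
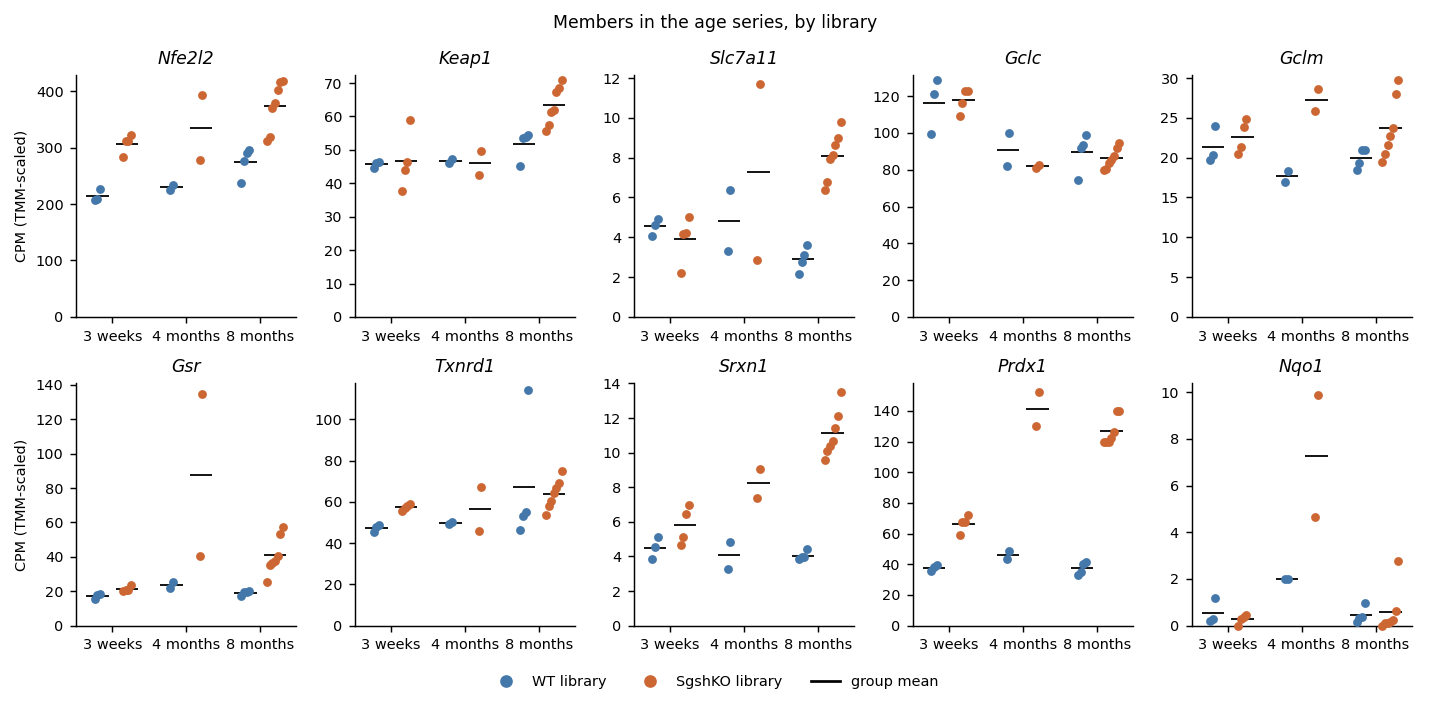
CPM of the 10 members in each of the 22 age-series libraries, 1 panel per gene, by age (x axis) and genotype (colour); points are libraries, short bars are group means, and each y axis starts at 0. Prdx1 separates the genotypes at every age, whereas Gclc and Gclm overlap at 8 months and 1 SgshKO library of 4 months reaches 135 CPM of Gsr.

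Nfe2l2 (chromosome 2, 75675513 to 75704663, minus strand), which encodes NRF2 itself, was modestly higher in SgshKO at every age. At 3 weeks it was at 207, 209 and 226 CPM in WT and 322, 312, 284 and 311 CPM in SgshKO. Every SgshKO library lay above every WT library. The log2 difference was 0.52 ± 0.11 (SE), a fold of 1.44 (edgeR, adjusted p = 0.00316). At 4 months the WT libraries were at 234 and 225 CPM and the SgshKO libraries at 393 and 278 CPM, with a log2 difference of 0.55 ± 0.15 (adjusted p = 0.0102, edgeR). The groups did not overlap, but the first SgshKO library carried much of the difference: without it the value was 0.24 (adjusted p = 0.342), and without WT replicate 2 the adjusted p was 0.0747. Each fit without a 4-month library leaves 1 library in that group, which is assumed to vary like the other groups. At 8 months WT was at 290, 276, 237 and 295 CPM and SgshKO ran from 311 through a median of 380 to 419 CPM. The groups again did not overlap, and the log2 difference was 0.45 ± 0.09 (adjusted p = 4.72e-04, edgeR). The difference between genotypes did not itself change detectably between 3 weeks and 8 months (interaction -0.07 ± 0.15, adjusted p = 0.833).

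Keap1 (chromosome 9, 21229730 to 21239332, minus strand), the adaptor that marks NRF2 for degradation, was called at 8 months and not before. At 3 weeks WT libraries were at 44.6, 46.4 and 46.2 CPM and SgshKO libraries at 37.7, 44.0, 58.9 and 46.3 CPM, with the SgshKO values on both sides of WT. At 4 months the values were 46.0 and 47.2 CPM in WT and 49.6 and 42.4 CPM in SgshKO, which overlap. At 8 months WT was at 45.3, 53.5, 54.0 and 54.5 CPM and SgshKO ran from 55.6 through 61.9 to 70.9 CPM. The ranges did not overlap by a narrow margin, and the log2 difference was 0.29 ± 0.10 (adjusted p = 0.0209, edgeR). That call was lost without the low WT replicate 1, at 0.23 (adjusted p = 0.0945), and without SgshKO replicate 1, at 0.25 (adjusted p = 0.0503). On the deposited TPM the difference was 0.12 (adjusted p = 0.281 by limma). The gene shares 510 exonic bases, 10.9% of its total, with the antisense gene Gm16754, and whether counting used strand is not given in the sources used here.

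Of the glutathione members, the cystine importer and the recycling enzyme differed at 8 months, and the subunits of the synthetic enzyme did not pass the test there. Slc7a11 (chromosome 3, 50364936 to 50443613, minus strand) encodes the cystine-glutamate exchanger that brings in the cysteine for glutathione. At 3 weeks it was at 4.91, 4.09 and 4.64 CPM in WT and 4.18, 4.23, 5.03 and 2.19 CPM in SgshKO, and at 4 months at 6.38 and 3.30 CPM against 11.7 and 2.84 CPM. The genotypes overlapped at both ages, and the SgshKO libraries of 4 months were the highest and the lowest of that age. At 8 months WT was at 2.15, 2.76, 3.63 and 3.10 CPM and SgshKO ran from 6.37 through 8.12 to 9.78 CPM. All 7 SgshKO libraries lay above all 4 WT libraries, with a log2 difference of 1.47 ± 0.30, a fold of 2.76 (adjusted p = 3.74e-04, edgeR). The difference was larger at 8 months than at 3 weeks by 1.68 ± 0.46 (interaction, adjusted p = 0.0194), a call lost without WT replicate 1 of 3 weeks (1.62, adjusted p = 0.0524). Counts were low, 31 to 215 per library at 8 months, and 373 bases of the transcript match Tuba1b on the opposite strand at 96.2%.

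Gclc (chromosome 9, 77754535 to 77794489, plus strand), the catalytic subunit of glutamate-cysteine ligase, was called at no age. Its log2 difference was 0.01 ± 0.10, -0.15 ± 0.14 and -0.06 ± 0.08 at 3 weeks, 4 months and 8 months. WT libraries of 3 weeks were at 129, 121 and 99.6 CPM and SgshKO ones at 116, 123, 123 and 109 CPM. By 8 months WT stood at 98.8, 91.9, 93.6 and 74.3 CPM and SgshKO ran from 80.0 through 85.4 to 94.3 CPM. The genotypes overlapped at both ages, while both were lower at 8 months than at 3 weeks. Gclm (chromosome 3, 122245557 to 122267215, plus strand) is the modifier subunit of the same enzyme. At 4 months it was at 18.3 and 17.0 CPM in WT and 25.9 and 28.6 CPM in SgshKO, without overlap, a log2 difference of 0.63 ± 0.19 (adjusted p = 0.0201, edgeR). With 2 libraries a group the call was fragile: it was lost in 3 of 4 fits that left out 1 library, both WT libraries and SgshKO replicate 2 (log2 values of 0.70, 0.59 and 0.51, adjusted p of 0.0658, 0.145 and 0.179). In 8-month-old mice WT was at 21.0, 18.4, 19.3 and 20.9 CPM and SgshKO ran from 19.5 through 22.7 to 29.8 CPM, with overlap (0.25 ± 0.12, adjusted p = 0.0898).

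Gsr (chromosome 8, 33653238 to 33698162, plus strand), the NADPH-dependent reductase that recycles oxidised glutathione, was 2.14-fold higher at 8 months and varied widely between SgshKO libraries. At 3 weeks WT was at 18.0, 15.6 and 18.4 CPM and SgshKO at 21.0, 20.4, 20.6 and 23.9 CPM. These ranges did not overlap, but the log2 difference of 0.31 did not pass (adjusted p = 0.625). At 4 months WT was at 21.9 and 25.2 CPM and SgshKO at 40.5 and 135 CPM, and 1 library therefore set the size of the log2 difference of 1.90 ± 0.35 (adjusted p = 3.66e-04, edgeR). Without that library, SgshKO replicate 2, it was 0.73 (adjusted p = 0.131). The 8-month WT libraries were at 19.4, 17.5, 19.6 and 20.1 CPM and SgshKO replicates 1 to 7 at 53.1, 36.7, 57.6, 35.3, 40.3, 25.5 and 37.7 CPM. All SgshKO libraries lay above WT, at 1.10 ± 0.22 (adjusted p = 3.27e-04, edgeR), and leaving out any 1 library kept the call.

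At 4 and at 8 months the SgshKO libraries highest in Gsr were also the richest of their group in RNA of neutrophil and monocyte markers. The 12 markers summed to 7.87 to 19.6 CPM in WT libraries of all ages and to 8.37 to 36.3 CPM in SgshKO of 3 weeks. They summed to 3030 and 14900 CPM in SgshKO replicates 1 and 2 of 4 months. In SgshKO replicates 1 to 7 of 8 months they summed to 2870, 844, 5880, 660, 772, 444 and 763 CPM. Most of this RNA came from S100a8, S100a9 and the neutrophil granule genes Ltf, Ngp and Camp. Of the 12 markers, 10 were above WT in every SgshKO library at 4 months and 9 at 8 months. Ccr2, a monocyte receptor, was lower at 4 months, at 2.92 to 3.79 CPM against 5.20 to 8.96 CPM in WT, and overlapped at 8 months (4.52 to 15.7 against 5.22 to 11.5 CPM). Vcan overlapped at both ages and Plac8 at 8 months. At 8 months all 12 markers were detected in SgshKO, whereas Retnlg, a neutrophil gene, was at 0 in all WT libraries of 4 and 8 months and Ly6c2 in WT of 4 months.

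The age series was fitted again without the richest library of 4 months, replicate 2, and the richest pair of 8 months, replicates 1 and 3. At 8 months the Gsr log2 difference was then 0.87 (adjusted p = 6.58e-06, edgeR), Prdx1 was at 1.75, Srxn1 at 1.36 and Nfe2l2 at 0.49, all still called. Keap1 was no longer called there (0.23, adjusted p = 0.0943). At 4 months this leaves 1 SgshKO library, itself with 3030 CPM of marker RNA and 40.5 CPM of Gsr, and its spread is taken from the other groups. On that basis Gsr was at 0.77 (adjusted p = 0.0276), Prdx1 at 1.71, Srxn1 at 1.16, Nfe2l2 at 0.77 and Gclm at 0.55 (adjusted p = 0.140, not called). In the SgshKO libraries that remained at 8 months the markers still summed to 444 CPM or more, and their part in the Gsr difference was not tested.

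**Figure D2:**
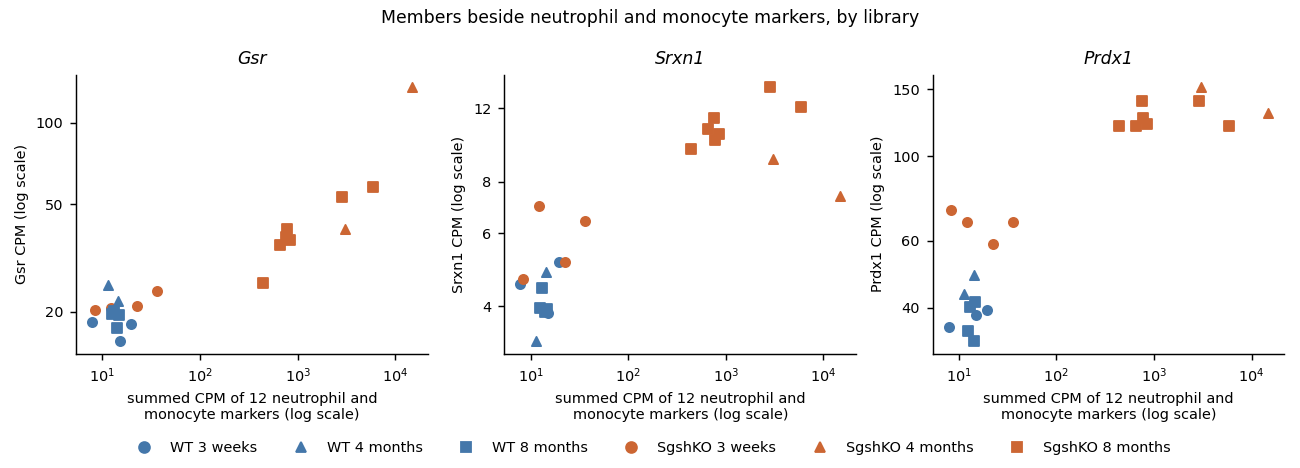
CPM of Gsr, Srxn1 and Prdx1 (y axes, log scale) against the summed CPM of 12 neutrophil and monocyte markers (x axis, log scale) in the 22 age-series libraries; shape gives age and colour genotype. Gsr is highest in the library with 14900 CPM of marker RNA, while Prdx1 stays between 120 and 152 CPM over SgshKO libraries whose marker sums run from 444 to 14900 CPM.

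Of the thioredoxin members, Prdx1 and Srxn1 were higher by more than 2-fold at 8 months and Txnrd1 was not called. Txnrd1 (chromosome 10, 82833951 to 82897724, plus strand), the cytosolic reductase that keeps thioredoxin reduced, was at 45.6, 48.0 and 48.7 CPM in WT and 58.8, 55.6, 56.8 and 57.8 CPM in SgshKO at 3 weeks. The groups did not overlap, but the log2 difference of 0.27 was not called (adjusted p = 0.539). At 4 months WT was at 50.2 and 49.2 CPM and SgshKO at 45.8 and 67.4 CPM, on both sides of WT. At 8 months WT was at 46.3, 53.2, 55.1 and 114 CPM and SgshKO ran from 53.7 through 64.4 to 74.8 CPM. WT replicate 4 alone lay above every SgshKO library. The log2 difference was -0.06 (adjusted p = 0.805) with it and 0.28 (adjusted p = 0.0406, edgeR) without it.

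Srxn1 (chromosome 2, 152105524 to 152111376, plus strand) encodes sulfiredoxin, which repairs peroxiredoxins that have been inactivated by over-oxidation. At 3 weeks it was at 5.12, 3.85 and 4.52 CPM in WT and 5.13, 4.66, 6.97 and 6.43 CPM in SgshKO. The ranges overlapped, and the log2 difference of 0.36 was not called (adjusted p = 0.390). At 4 months WT was at 4.85 and 3.30 CPM and SgshKO at 9.05 and 7.39 CPM, without overlap, at 1.02 ± 0.28 (adjusted p = 0.0108, edgeR). Leaving out WT replicate 2 (0.77, adjusted p = 0.200) or SgshKO replicate 1 (0.84, adjusted p = 0.0872) ended this call. By 8 months WT was at 3.95, 3.88, 3.96 and 4.42 CPM and SgshKO ran from 9.57 through 10.7 to 13.5 CPM. The lowest SgshKO library was thus far above the highest WT library, and the log2 difference was 1.46 ± 0.18, a fold of 2.74 (adjusted p = 3.23e-07, edgeR). The difference was larger at 8 months than at 3 weeks by 1.10 ± 0.27 (interaction, adjusted p = 0.00927).

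Prdx1 (chromosome 4, 116685599 to 116700000, plus strand), an abundant cytosolic enzyme that reduces hydrogen peroxide with electrons from thioredoxin, had the lowest adjusted p of the 10 at every age. At 3 weeks it was at 39.4, 38.3 and 35.7 CPM in WT and 58.8, 72.4, 67.3 and 67.4 CPM in SgshKO. The genotypes were well apart already in these young mice, at a log2 difference of 0.82 ± 0.10, a fold of 1.76 (adjusted p = 3.52e-06, edgeR). At 4 months WT was at 48.7 and 43.6 CPM and SgshKO at 152 and 130 CPM, a log2 difference of 1.61 ± 0.13 (adjusted p = 4.73e-09, edgeR). At 8 months WT was at 41.5, 32.7, 34.8 and 40.3 CPM and SgshKO ran from 120 through 122 to 140 CPM. The 7 SgshKO libraries lay within a narrow band, and the log2 difference was 1.77 ± 0.09, a fold of 3.40 (adjusted p = 5.10e-14, edgeR). The difference was larger than at 3 weeks by 0.80 ± 0.16 at 4 months (interaction, adjusted p = 0.00967) and by 0.95 ± 0.13 at 8 months (adjusted p = 2.08e-05). The interaction at 4 months was lost without WT replicate 2 of that age (0.73, adjusted p = 0.0843). Between 4 and 8 months no further growth was detected (0.15 ± 0.15, adjusted p = 0.757). Processed pseudogenes of Prdx1, Gm21399 and Gm7204, match it at 98.3% and 97.5% over 597 bases, and how reads shared with them were assigned is not given in the sources used here.

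Nqo1 (chromosome 8, 107388225 to 107403205, minus strand), a quinone reductase widely used as a readout of NRF2, was at most 9.89 CPM in the age series and was called at no age. At 3 weeks its counts were 4, 3 and 21 in WT, or 0.281, 0.181 and 1.17 CPM, and SgshKO was at 0.380, 0.285, 0 and 0.438 CPM. At 4 months WT was at 2.01 and 2.01 CPM and SgshKO at 4.65 and 9.89 CPM. Those were the highest values of the series and did not overlap, but the log2 difference of 1.85 ± 1.34 did not pass (adjusted p = 0.375). The values at 8 months in WT were 0.347, 0.388, 0.142 and 0.973 CPM, and SgshKO ran from 0 through 0.147 to 2.77 CPM. The sign at 8 months hung on single libraries, running from -1.13 without SgshKO replicate 2 to 0.89 without WT replicate 4. Fitting the 4-month groups alone, Nqo1 was called there (1.85, adjusted p = 0.0488, edgeR), with counts of 17 and 28 in WT and 38 and 115 in SgshKO.

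**Figure D3:**
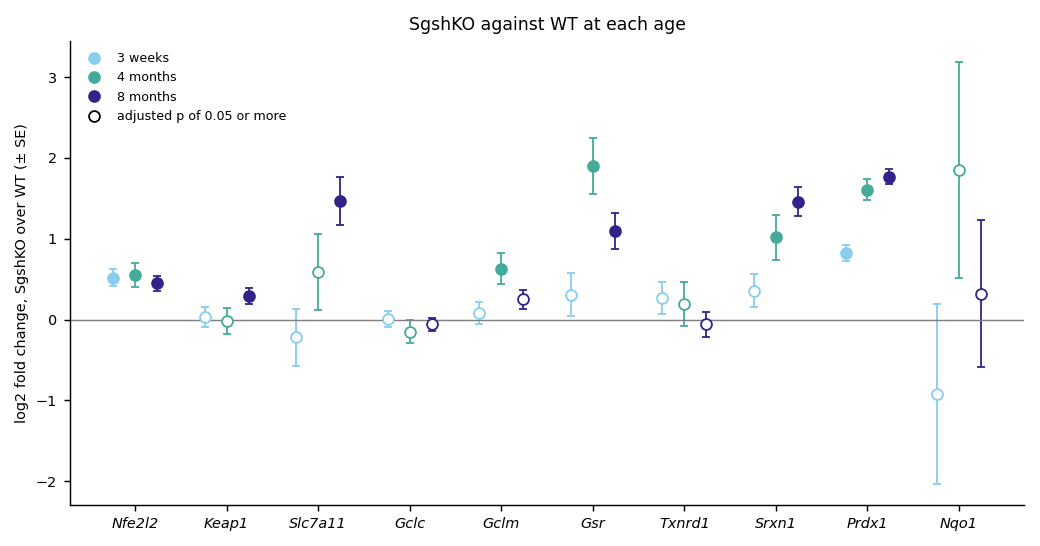
Log2 fold change of SgshKO over WT for each member (x axis) at 3 weeks, 4 months and 8 months (colour), with the SE from edgeR as bars; filled points have an adjusted p under 0.05. Prdx1 is called at all 3 ages and reaches 1.77 at 8 months, whereas Gclc stays between -0.15 and 0.01.

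As a test of the difference itself, 3 members had a larger genotype difference at 8 months than at 3 weeks, Slc7a11, Srxn1 and Prdx1, beside 9.25% of all genes. Gsr had a value of 0.79 ± 0.34 that did not pass (adjusted p = 0.167). Between 4 months and 3 weeks only Prdx1 was called, beside 2.52% of all genes, and Gsr was just over the threshold (1.59 ± 0.44, adjusted p = 0.0511). Between 8 and 4 months none was called, beside 0.391% of all genes (56 genes). Within WT, 1 member differed between 8 months and 3 weeks, beside 7.65% of all genes. This was Gclc, lower at 8 months by -0.38 ± 0.10 (adjusted p = 0.0206, edgeR), a call lost without WT replicate 1 or 2 of 3 weeks or replicate 4 of 8 months (adjusted p up to 0.143). Nfe2l2 was at 0.36 in WT (adjusted p = 0.0543). Within SgshKO, 7 members differed between the same ages, beside 30.6% of all genes. Of these, Slc7a11 (1.05), Srxn1 (0.95), Gsr (0.93), Prdx1 (0.93), Keap1 (0.44) and Nfe2l2 (0.28) were higher at 8 months and Gclc was lower (-0.45), all on the log2 scale. Gclc thus fell with age in both genotypes, and its genotype by age value was -0.07 ± 0.13 (adjusted p = 0.812).

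The other genes of the pathway were taken from 5 lists of 74 genes, of which 70 were tested. At 3 weeks 13 were higher and 3 lower in SgshKO, beside 9.03% of all genes called. At 4 months 28 were higher and 7 lower, beside 19.5%, and at 8 months 38 and 10, beside 40.5%. Their median log2 difference at 8 months was 0.59, against 0.02 for all genes. At 8 months the heme, iron and detoxification list had 13 of 15 higher and none lower, and the list of NADPH-supplying enzymes had 5 of 6 higher and none lower. The thioredoxin list had 7 higher and 3 lower of 12. The glutathione list, with 11 higher and 3 lower of 25, and the list of NRF2 regulators, with 2 higher and 4 lower of 12, were nearer to the 40.5% of all genes called, and their counts alone say little.

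Among the regulators, Maff, a small MAF partner of NRF2, ran from 0.630 to 1.42 CPM in WT and from 1.91 to 9.19 CPM in SgshKO at 8 months (log2 difference 2.36 ± 0.47). Sqstm1, the autophagy receptor that binds KEAP1, ran from 154 to 179 CPM in WT and from 219 to 345 CPM in SgshKO (0.84 ± 0.09). Bach1, a repressor that competes with NRF2 for its sites, was lower, at a median of 212 CPM in WT and 169 CPM in SgshKO (-0.60 ± 0.14). WT replicate 4 stood at 418 CPM of Bach1 in a group otherwise at 204 to 218 CPM, and without it the value was -0.31 (adjusted p = 0.00302, edgeR). This is the same WT library that was high in Txnrd1.

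In the glutathione list Gpx3, an extracellular peroxidase, went from 0.0884 to 0.519 CPM in WT to 25.2 to 41.6 CPM in SgshKO, a log2 difference of 6.75 ± 0.33. Mgst1, a membrane glutathione transferase, ran from 0 to 0.388 CPM in WT and from 0.271 to 9.14 CPM in SgshKO (4.49 ± 1.22). All 8 of its WT counts were in replicate 2, and without that library the value was 8.43, while limma on log2 of TPM plus 1 gave 1.80. The SgshKO libraries richest in neutrophil markers, replicates 3 and 1, were also the highest in Mgst1, at 9.14 and 2.91 CPM, and without them and the marker-rich 4-month library the value was 3.47. Chac1, which breaks glutathione down, had 1 count over the 4 WT libraries and 66 over the 7 SgshKO libraries, a ratio of 33.6 with a 95% interval of 5.83 to 1350 that covers counting error only. Replicates 1 and 3 held 24 and 25 of these counts, at 0.883 and 0.944 CPM against 0 to 0.346 CPM in the other SgshKO libraries. Without either of them Chac1 fell under the filter on low counts and was not tested. The part of the neutrophil markers in Mgst1 and Chac1 was not tested. In the thioredoxin list Txn1 (thioredoxin, 1.41 ± 0.19), Prdx4 (the peroxiredoxin of the endoplasmic reticulum, 1.29 ± 0.11) and Prdx6 (1.21 ± 0.14) were higher, and their 8-month ranges did not overlap between genotypes. Txn1 was at a median of 9.72 CPM in WT and ran from 21.2 to 36.2 CPM in SgshKO. The pentose phosphate enzymes Tkt (1.13 ± 0.12) and Taldo1 (0.68 ± 0.11) and the dehydrogenase Idh1 (0.59 ± 0.10), which supply NADPH or feed the route to it, were also higher. Fth1, the ferritin heavy chain, ran from 414 to 545 CPM in WT and from 1890 to 2300 CPM in SgshKO (2.12 ± 0.08). Osgin1, an oxidative stress response gene, was higher by 2.12 ± 0.22. Sod3, an extracellular superoxide dismutase of at most 1.32 CPM, was higher by 2.35 ± 0.81, a call lost without WT replicate 1 (1.98, adjusted p = 0.0675) or 2 (2.24, adjusted p = 0.0598). The genes named from these lists were chosen among those called at 8 months, so all passed edgeR's test by that choice. Their adjusted p from edgeR ran from 5.94e-16 (Fth1) to 0.0221 (Sod3).

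**Figure D4:**
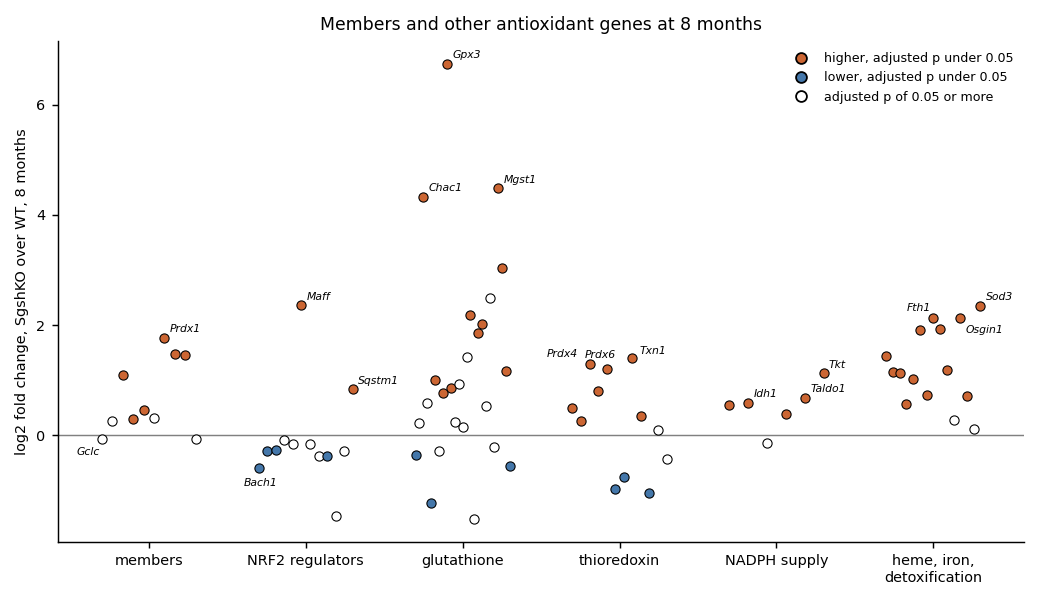
Log2 fold change of SgshKO over WT at 8 months (y axis) for the members and the 5 pathway lists (x axis), 1 point per gene; orange is higher, blue is lower and open points have an adjusted p of 0.05 or more in edgeR. In the heme, iron and detoxification list 13 of 15 genes are higher, while in the list of regulators 4 of 12 are lower.

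The genes whose pattern was most like each member were found by the root mean square difference of centred log2 CPM over the 22 libraries, where a smaller value is more alike. It is read against the spread of the gene itself, the root mean square of its own centred values. Prdx1, with a spread of 0.79, lay nearest to Aldoa and Aplp2 (both 0.18). Srxn1 (spread 0.62) lay nearest to Eef1b2 (0.20) and Coro1c (0.21), and Gsr (spread 0.72) to Sptbn1 (0.25) and Adpgk (0.28). Nfe2l2 (spread 0.32) lay nearest to Manba and Il10rb (both 0.15), and Nqo1 (spread 1.63) to Lrrn2 (0.74) and Rai2 (0.78). Keap1 (spread 0.24) lay nearest to Edem2 (0.12) and Naxd (0.14), and Gclc (spread 0.23) to Mtdh (0.12) and Man1a2 (0.13). The neighbours of Slc7a11 (spread 0.68), Sec14l2 (0.41) and Tmem106a (0.44), those of Txnrd1 (spread 0.29), Trappc6b (0.19) and Tmbim4 (0.20), and those of Gclm (spread 0.21), Pcbp2 and Copz1 (both 0.15), were the farthest in relation to the spread. No member was among the nearest genes of another member.

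The ASO libraries ask whether lowering MITF, TFEB or TFE3, factors that drive lysosomal genes, alters expression in microglia. Each ASO lowered its own target in WT. Mitf was at 1.01 to 2.15 CPM against 34.5 to 50.4 CPM with ntc, Tfeb at 4.59 to 6.91 CPM against 52.6 to 58.1 CPM, and Tfe3 at 34.9 to 40.5 CPM against 192 to 202 CPM. Libraries were fitted with their grp number, which runs from 1 to 4 and pairs the treatments. The comparisons with ntc all use the same 4 ntc libraries, so a chance deviation in those moves all of them.

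With the Mitf ASO 2 of 9 members were higher than with ntc, beside 11.0% of all genes called. Prdx1 was at 144, 127, 119 and 104 CPM with ntc in grp 1 to 4 and at 195, 163, 141 and 129 CPM with the Mitf ASO. It was higher in all 4 numbers although the ranges overlap, because grp 1 was high and grp 4 low in both. The log2 difference was 0.34 ± 0.07 (adjusted p = 0.00323, edgeR). Nfe2l2 was at 324, 362, 364 and 380 CPM with ntc and 386, 411, 377 and 442 CPM with the Mitf ASO. It too was higher in all 4 numbers, by 0.18 ± 0.05 (adjusted p = 0.0395, edgeR), but the call held in only 1 of 8 fits that left out a library, with adjusted p up to 0.118. The other 7 members differed by 0.02 to 0.15, and none of these passed.

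With the Tfe3 ASO 1 of 9 members, Prdx1, was higher than with ntc, beside 2.16% of all genes. It was at 177, 151, 147 and 137 CPM, above ntc in all 4 numbers, with a log2 difference of 0.31 ± 0.07 (adjusted p = 0.0206, edgeR). The call was lost without ntc replicate 1 or 4 or Tfe3 replicate 3 or 4, with values of 0.28 to 0.33 over all 8 such fits and adjusted p up to 0.0891. Nfe2l2 was at 367, 398, 368 and 401 CPM, 0.10 ± 0.05 above ntc (adjusted p = 0.351). With the Tfeb ASO none of 9 was called, beside 0.778% of all genes. Prdx1 was then at 161, 123, 113 and 117 CPM, higher than ntc in 2 of 4 numbers and lower in the other two (0.06 ± 0.07, adjusted p = 0.731). Nfe2l2 was at 318, 350, 345 and 391 CPM, and Slc7a11 at -0.32 ± 0.19 was not called (adjusted p = 0.443).

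Set directly against each other, the Mitf ASO gave more Prdx1 (0.28 ± 0.07, adjusted p = 0.0262, edgeR) and more Nfe2l2 (0.20 ± 0.05, adjusted p = 0.0411) than the Tfeb ASO, 2 of 9 members beside 3.53% of all genes. Both were higher in 4 of 4 numbers. The Nfe2l2 call held in 2 of 8 fits that left out 1 library (adjusted p up to 0.130) and the Prdx1 call in 4 of 8 (up to 0.115). Between the Mitf and Tfe3 ASOs none of 9 was called, beside 3.76% of all genes, and Prdx1 differed by 0.03 ± 0.07. Between the Tfeb and Tfe3 ASOs none of 9 was called, beside 1.62% of all genes. There Prdx1 was lower with the Tfeb ASO in 4 of 4 numbers, by -0.26 ± 0.07 (adjusted p = 0.0656).

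The ntc ASO itself was compared with PBS, and none of 9 members was called, beside 0% of all genes (415 of 10277 genes had an unadjusted p under 0.05 in edgeR, and DESeq2 called 2 genes). Prdx1 was at 112, 108, 112 and 104 CPM with PBS. The ntc libraries were above these in 3 of 4 numbers and level in grp 4, a difference of 0.16 ± 0.07 (unadjusted p = 0.0281, not called after adjustment). Nfe2l2 was at 281, 360, 370 and 370 CPM with PBS, with replicate 1 low. Of the 12 neutrophil and monocyte markers 1 is listed in the WT ASO table, at 2.32 to 5.51 CPM. The others are not listed there, so their level in the WT ASO libraries is not known.

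**Figure D5:**
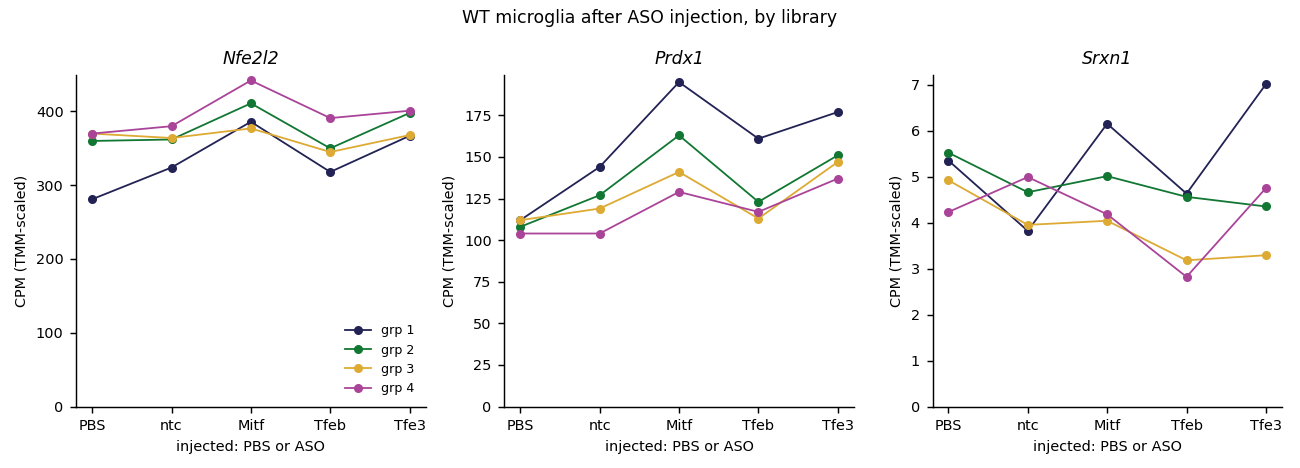
CPM of Nfe2l2, Prdx1 and Srxn1 in the 20 WT ASO libraries by treatment (x axis); each line joins libraries that share a grp number. Prdx1 is higher with the Mitf and Tfe3 ASOs than with ntc along all 4 lines, whereas the lines of Srxn1, between 2.82 and 7.01 CPM, cross.

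In SgshKO mice the Mitf and Tfe3 ASOs together lowered Mitf to 7.51 to 23.2 CPM, against 60.7 to 82.1 CPM with ntc, and Tfe3 to 75.0 to 87.1 CPM, against 137 to 194 CPM. None of the 10 members was called, beside 9.33% of all genes, and their log2 differences ran from -0.27 to 0.09. Prdx1 ran from 253 through a median of 296 to 361 CPM with ntc and from 252 through 285 to 324 CPM with both ASOs, which overlap almost fully (-0.05 ± 0.06, adjusted p = 0.614). Nfe2l2 ran from 447 through 482 to 530 CPM with ntc and from 364 through 467 to 491 CPM with both ASOs (-0.08 ± 0.05, adjusted p = 0.349). Slc7a11 had the largest difference, from 5.27 through 6.60 to 7.97 CPM with ntc to 3.91 through 5.45 to 7.17 CPM with both ASOs, again with overlap. Its value of -0.27 ± 0.13 had an unadjusted p of 0.0477 and an adjusted p of 0.191 by edgeR. Srxn1 was at medians of 8.97 and 9.12 CPM (0.00 ± 0.08) and Gsr at 42.3 and 40.4 CPM (-0.10 ± 0.05, adjusted p = 0.266). Keap1, Gclc, Gclm and Txnrd1 lay between -0.01 and 0.09. Nqo1 was at medians of 8.65 CPM with ntc and 8.25 CPM with both ASOs (-0.01 ± 0.27). Of the 12 neutrophil and monocyte markers 7 are listed in this table, and their sums differed by grp. With ntc they summed to 5.44 to 7.23 CPM in grp 1 and to 75.9 to 568 CPM in grp 2. With both ASOs they summed to 4.14 to 44.5 CPM in grp 1 and to 81.0 to 361 CPM in grp 2. The ASO and age tables use different gene models, and levels were not compared across them.

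Of the other pathway genes, 8 were higher and 3 lower of 56 with the Mitf ASO in WT, beside 11.0% of all genes called. With the Tfeb ASO 2 were higher and 0 lower, beside 0.778%, with the Tfe3 ASO 4 and 0, beside 2.16%, and between ntc and PBS 0 and 0, beside 0%. In SgshKO 5 were higher and 1 lower of 64 with both ASOs, a share close to the 9.33% of all genes.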

How the data were processed

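RNA-seq was read from raw counts deposited by the authors for 22 age-series, 20 wild-type ASO and 16 SgshKO ASO libraries. The TPM of the age series and, for the ASO libraries, a normalised, batch-corrected signal on a linear scale were also deposited by the authors and served as alternatives. How that signal was made is not given in the sources used here. The libraries were dUTP-stranded, per the labels' protocols, but whether counting used strand is not given in the sources used here. The build mm10 and the tools STAR 2.5.3a, kallisto 0.44.0, HOMER 4.11 and DESeq2 1.36.0 are named, per the submitters' processing notes, without a role or order. No table held a per-sample column outside these samples (0 columns).

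Counts were tested with edgeR 4.0.16 (R 4.3.3, quasi-likelihood F test, TMM, filterByExpr with a minimum count of 10) in 1 model per table, with Benjamini-Hochberg adjustment over all genes of a comparison and a threshold of 0.05. The SE is the log2 fold change divided by the square root of F. The scripts were tested on simulated data with known changes. Replicates differed beyond counting noise, and none was merged. The age model held the 6 groups. The ASO models also held grp, the number in the titles: in WT the 28 pairs of libraries with the same number deviated together, r = 0.12 to 0.64, and so are paired. Alternatives were DESeq2 1.42.0, its size factors, no filter, limma 3.58.1 on log2 of TPM plus 1 or 0.1 or of the signal plus 1, other blocks or fewer groups, and leaving out each library.

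The members and the gene lists were chosen with earlier results of these data known. All members were named. Of each pathway list the text names up to 3 genes, those called at 8 months with the largest fold change, and for each member the 2 genes nearest in pattern. Keap1 and Txnrd1 have another transcript in the TPM table than in the counts.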

Additional observations from a re-analysis of the deposited data

Results flagged for a closer look

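Over the members, 95 sets of a gene in a group of 4 to 10 libraries were examined, and in 8 the highest or lowest library stood apart from the rest, where chance gives about 1 in 20. WT replicate 4 of 8 months did so for both Txnrd1, at 114 CPM against 46.3 to 55.1 CPM in the others, and Srxn1, at 4.42 CPM against 3.88 to 3.96 CPM. In the same group replicate 1 was low in Keap1, at 45.3 CPM against 53.5 to 54.5 CPM. SgshKO replicate 2 of 8 months had 2.77 CPM of Nqo1 against 0 to 0.620 CPM, and SgshKO replicate 4 of 3 weeks had 23.9 CPM of Gsr against 20.4 to 21.0 CPM. Among ASO libraries, Nfe2l2 was low in PBS replicate 1 (281 CPM against 360 to 370 CPM) and in replicate 1 of grp 1 with the Mitf and Tfe3 ASOs in SgshKO (364 CPM against 444 to 491 CPM). Slc7a11 was high in replicate 1 of the Tfeb ASO, at 5.65 CPM against 3.89 to 4.05 CPM.

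The genotype difference itself changed with age for 3 members (edgeR interaction, log2 scale). From 3 weeks to 8 months it grew by 1.68 for Slc7a11, 1.10 for Srxn1 and 0.95 for Prdx1. From 3 weeks to 4 months it grew by 0.80 for Prdx1.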

How the results depend on the processing

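For members called in the age series, 180 of 193 alternative fits and 233 of 249 fits without 1 library stayed past the threshold. For members called in the ASO comparisons, 24 of 30 and 19 of 40 did. None of these fits changed direction. The named pathway genes are not in these counts. The count of members called at 4 months went from 5 to 3 when only the groups compared were fitted. The 4 months against 3 weeks interaction went from 1 to 2 members with DESeq2, its size factors or no filter, and WT ageing from 1 to 2 with these and with both TPM fits. DESeq2 called 1 member between the Tfeb and Tfe3 ASOs. With no replicate block, 0 members were called for Mitf or Tfe3 against ntc and for Mitf against Tfeb. PBS replicate 4 is grp 4 by its title and grp 3 by its column. With it in grp 3, an alternative chosen after seeing the data like the omission of 3 libraries rich in neutrophil markers, Mitf against Tfeb had 1.

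In the age series libraries share only a number (r = -0.17 to 0.11 at 3 weeks). With the replicate block there, the Slc7a11 interaction was 1.71 (adjusted p = 0.0528), Nfe2l2 with age in SgshKO 0.17 (0.238) and Sod3 1.82 (0.143), and Txnrd1 at 8 months turned to 0.02. Among SgshKO ASO libraries of the same number, r ran from 0.08 to 0.61. It was over 0.1 in 5 of 8 such pairs and in 2 of 24 other pairs. With a replicate block for these numbers 0 members were called. Further reversals, all of values not called, were Keap1 (-0.03 and -0.04) and Gclc (-0.04 and -0.04) at 3 weeks and Nqo1 (-0.06 and -0.52) at 8 months with TPM plus 1 and plus 0.1, and, without the 3 libraries, Keap1 (0.08) and Txnrd1 (-0.12) at 4 months. Fitting only 3-week groups called Txnrd1 (0.28, adjusted p = 0.0323) and only 4-month groups Nqo1 (1.85, 0.0488).

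Without 1 library at a time, Gclc ran from -0.08 to 0.10 at 3 weeks and -0.28 to 0.01 at 4 months, Keap1 from -0.10 to 0.12 and -0.17 to 0.04, Nqo1 from -1.33 to 0.32 at 3 weeks and -1.13 to 0.89 at 8 months, Slc7a11 from -0.78 to 1.25 at 4 months, and Txnrd1 from -0.17 to 0.40 at 4 months and -0.20 to 0.28 at 8 months. Members called ran from 2 to 4 at 4 months, 0 to 2 and 0 to 1 for the interactions of 4 months with 3 weeks and 8 with 4 months, 0 to 2 for WT ageing, 1 to 2 for Mitf against ntc, 0 to 2 for Mitf against Tfeb and 0 to 1 for Tfe3 against ntc and Tfeb against Tfe3. The cause of these shifts was not tested.

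Over all genes, the calls moved by more than 1.5 times as follows. DESeq2 gave 692 for 361 in the 4 months against 3 weeks interaction, 168 for 56 in the 8 against 4 months interaction, 213 for 80 (Tfeb against ntc), 403 for 222 (Tfe3 against ntc), 573 for 363 (Mitf against Tfeb), 429 for 167 (Tfeb against Tfe3) and 2 for 0 (ntc against PBS). The signal gave 145, 284 and 1 for Tfeb against ntc, Tfeb against Tfe3 and ntc against PBS. The 56 became 131 with no filter, 21 with the replicate block and 22 with only the groups compared. No replicate block gave 211 for 1128 (Mitf against ntc), 9 for 80, 29 for 222, 100 for 386 (Mitf against Tfe3), 33 for 363, 7 for 167 and 452 for 988 (both ASOs in SgshKO). Without the 3 libraries, which leaves 1 SgshKO library of 4 months, 2794 became 1461, 361 became 127 and 56 became 9. Nqo1 had 0 to 115 counts per age-series library, and arms of 1 library at 4 months take their spread from the other groups.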
